A study of Gallus gallus with 24 samples.

Results

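The genes described are enzymes that make UDP-glucose and build or break down glycogen, chosen by 9 symbols (UGP2, UGDH, PGM1, PGM2, GYS1, GYS2, GBE1, PYGL and PYGB). Of these, 8 had a row among the 15051 genes of the chicken count table. GYS1, the synthase of muscle glycogen, had no row under that symbol and is not analysed here. The set was proposed from the difference in UGP2 between Sal-exposed and control hearts, so the heart comparison is given as a description with no test. The liver comparison, and the comparison of the tissues in control birds, were not used to propose UGP2 and were tested. The comparison of the tissues shares its control hearts with the heart comparison. Its test of UGP2 is therefore not independent of the choice of UGP2.

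RNA-seq was performed on heart and liver of female broiler chickens (Gallus gallus) fed salinomycin (Sal), an ionophore that carries cations across membranes and is given against coccidiosis, or feed without it. The Sal-exposed birds received 10.5 mg of Sal per kg of feed, about 0.9 mg per kg of body weight per day, from week 4 to week 5, and all birds were sampled in week 5. There were 6 Sal-exposed and 6 control birds per tissue and thus 24 libraries of bulk tissue, 1 per bird and tissue. The labels do not say whether a heart and a liver of the same number came from 1 bird. Hearts were homogenized in RNA Extracol and livers in the lysis buffer of the extraction kit, so tissue and homogenization cannot be told apart.

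Total counts per library ranged from 31.37 to 44.53 M and had similar ranges in the 4 groups. Summed cardiomyocyte markers (6 genes) were at 21000 to 35300 CPM (counts scaled to a common library size) in the hearts and 7.61 to 255 CPM in the livers. Summed liver markers (8 genes) were at 103000 to 278000 CPM in the livers and 233 to 731 CPM in the hearts. The share of counts on mitochondrial genes was 40.7 to 79.6% in Sal-exposed hearts (median 48.7%) and 38.6 to 47.9% in control hearts (median 40.2%; two-sided exact permutation p = 0.0368), with Sal-exposed hearts 1 (72.0%) and 4 (79.6%) far above the others. In the livers it was 6.92 to 30.4% in Sal-exposed birds and 5.21 to 26.5% in control birds (exact permutation p = 0.299). Levels below are CPM scaled by TMM, a method that sets the bulk of genes equal between libraries. This scaling was large in both tissues, with factors of 0.425 to 1.31 in the hearts and 0.713 to 1.42 in the livers. The lowest factors were those of Sal-exposed hearts 4 (0.425) and 1 (0.563). Scaled by total counts alone, the median log2FC (log2 fold change) of all genes was 0.58 between Sal-exposed and control livers and -0.54 between Sal-exposed and control hearts, against -0.01 and -0.02 with TMM.

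UGP2 joins glucose 1-phosphate with UTP to form UDP-glucose, the activated sugar from which glycogen synthase (GYS2 in liver) lengthens glycogen, while GBE1 makes its branches. Phosphoglucomutases (PGM1, PGM2) supply and remove glucose 1-phosphate, UGDH oxidizes UDP-glucose to the UDP-glucuronate used by UDP-glucuronosyltransferases, and glycogen phosphorylases (in mammals PYGL is the liver and PYGB the brain form) release glucose 1-phosphate from glycogen. Liver stores glycogen to feed blood glucose, whereas heart uses its own store.

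UGP2 (ENSGALG00010018904, GRCg7b chromosome 3, 9739091 to 9762360) was higher in every Sal-exposed heart than in every control heart. In Sal-exposed hearts 1 to 6 its level was 1232, 288, 374, 218, 446 and 417 CPM. In control hearts 1 to 6 it was 81.7, 103, 106, 93.4, 149 and 139 CPM. The lowest Sal-exposed heart thus stood above the highest control heart, and Sal-exposed heart 1 stood far above the other 5. The log2FC was 2.15 (SE 0.36), a 4.45-fold higher fitted level in Sal-exposed hearts. Without Sal-exposed heart 1 the log2FC was 1.64 (SE 0.21), and without Sal-exposed hearts 1 and 4 it was 1.77 (SE 0.18). It was 2.15 (SE 0.36) without the mitochondrial genes and 1.54 (SE 0.36) under scaling by total counts.

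**Figure D1:**
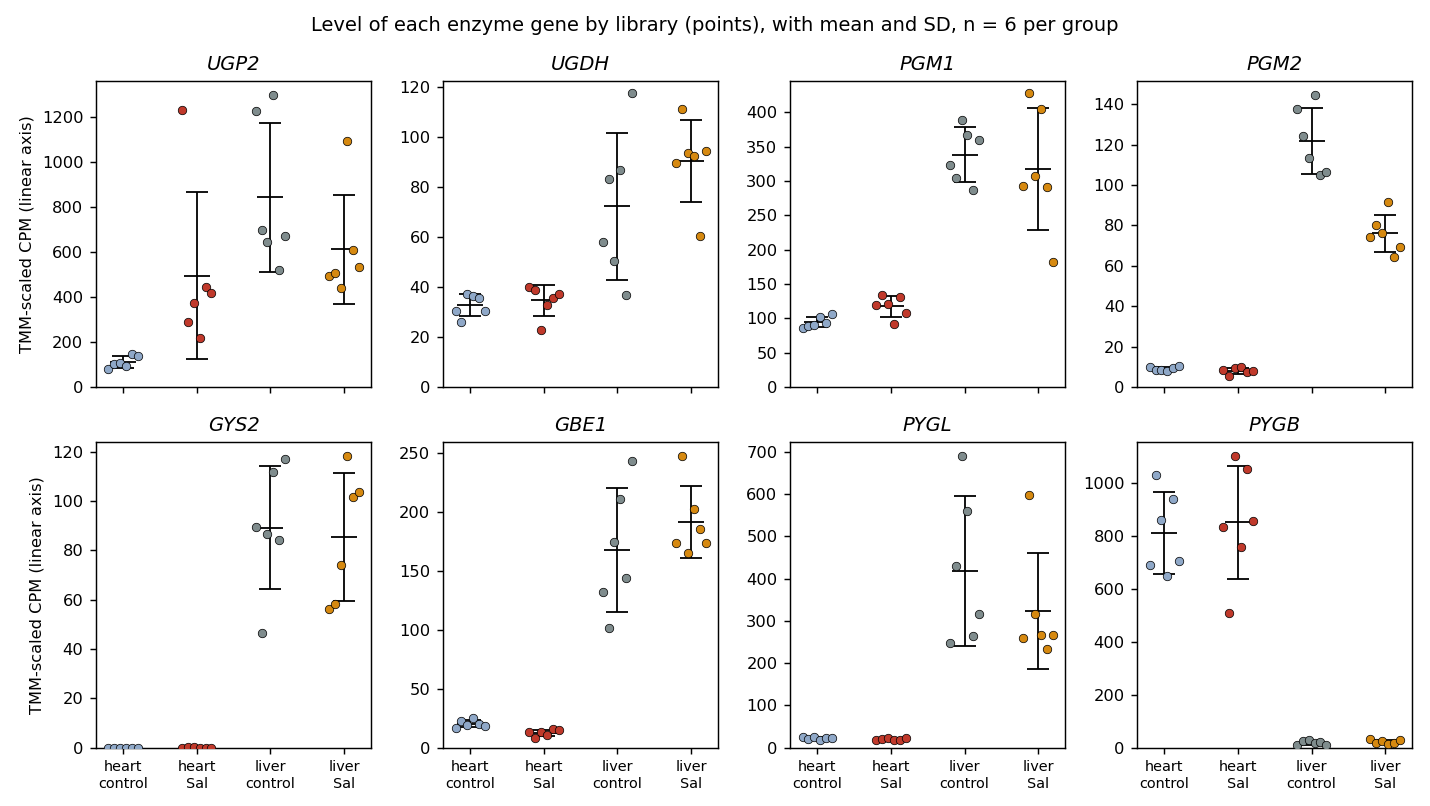
Level of each of the 8 enzyme genes (TMM-scaled CPM, linear axes that start at 0) in control and Sal-exposed hearts and livers, with 1 point per library, the mean as a horizontal line and the SD as bars (n = 6 per group). UGP2 in Sal-exposed hearts spans 218 to 1232 CPM, above control hearts (81.7 to 149 CPM) and overlapping the range of the livers, while PYGB is high in the hearts and GYS2 is near 0 there.

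Across the 4 groups, the mean level of UGP2 was 844 ± 331 CPM in control livers (SD, n = 6), 613 ± 243 CPM in Sal-exposed livers, 496 ± 370 CPM in Sal-exposed hearts and 112 ± 26.4 CPM in control hearts. The ranges of the first 3 groups overlapped (520 to 1300, 439 to 1095 and 218 to 1232 CPM), and control hearts lay apart from each of them. As the tissue is bulk, more cells of a type and more RNA per cell cannot be told apart.

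Counts of marker genes of other tissues stood beside this difference as follows. Summed liver markers (8 of 8 found) overlapped between the groups, at 279 to 507 CPM in Sal-exposed and 233 to 731 CPM in control hearts (medians 385 and 449). Most of that sum was APOA1, an apolipoprotein, at 236 to 480 CPM in Sal-exposed and 226 to 724 CPM in control hearts. ALB, the main secreted protein of liver, did not overlap and was at 17.3 to 68.6 CPM in Sal-exposed hearts and 4.71 to 8.35 CPM in control hearts. FGB, FGA, AHSG, APOH and the more abundant TTR row were also higher in every Sal-exposed heart than in every control heart. Their lowest Sal-exposed against highest control levels were 1.85 against 1.58, 0.942 against 0.584, 1.4 against 0.981, 0.48 against 0.36 and 0.916 against 0.847 CPM. APOB overlapped, at 0.913 to 2.1 against 0.17 to 1.11 CPM. Those ALB levels are 0.0137 to 0.0544% of the control liver level, and liver RNA at that share carries 0.116 to 0.459 CPM of UGP2, which is 0.016 to 0.123% of the UGP2 measured in the Sal-exposed hearts. Summed intestine markers (7 of 8 found) were at 2.95 to 20.5 CPM in Sal-exposed and 1.53 to 2.59 CPM in control hearts, the highest being Sal-exposed heart 1, which also had the highest UGP2. Of these, FABP2 (0.274 to 0.966 against 0.0446 to 0.0793 CPM) and GUCA2B (0.634 to 7.03 against 0.0912 to 0.2865 CPM) did not overlap. MUC2 and CDX1 did not overlap either, while VIL1, APOA4 and CDX2 overlapped. Summed kidney markers (5 of 8 found) overlapped, at 2.32 to 8.15 against 4.13 to 4.76 CPM, and were also highest in Sal-exposed heart 1. Among them, SLC5A12 (0.0685 to 1.5 CPM against 0 in every control heart) and SLC6A19 (0.16 to 1.61 against 0 to 0.0793 CPM) did not overlap. SLC13A2, CUBN and LRP2 overlapped. Skeletal muscle markers (2 of 6 found) overlapped too, at 0.419 to 1.86 against 0.593 to 10.9 CPM. Summed cardiomyocyte markers were at 25750 to 35330 CPM in Sal-exposed and 20980 to 25810 CPM in control hearts, which overlapped slightly. Of these markers TNNC1 alone did not overlap, at 2755 to 5120 against 1930 to 2601 CPM. TNNT2, ACTC1, NPPA, MYBPC3 and RYR2 overlapped, and RYR2 tended the other way, at 349 to 843 against 602 to 982 CPM. Leukocyte markers (783 to 1930 against 962 to 1890 CPM), endothelium markers (283 to 582 against 459 to 677 CPM) and erythrocyte markers (207 to 1510 against 279 to 1180 CPM) overlapped between the groups. The liver share above rests on ALB alone and on the mean levels of control livers. The part of liver RNA, of the intestine, cardiomyocyte and other markers and of the mitochondrial share in the UGP2 difference was not tested.

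No neighbour of UGP2 differed to a like extent. VPS54 begins 0.006 kb after UGP2 ends and had a heart log2FC of 0.12 (SE 0.19), and MDH1, 19.7 kb before it, had 0.07 (SE 0.16). The 10 genes of the count table next to UGP2 in order on chromosome 3, 5 on each side, lay between -0.49 and 0.40. They reached 468 kb before UGP2 and 179 kb after it.

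**Figure D2:**
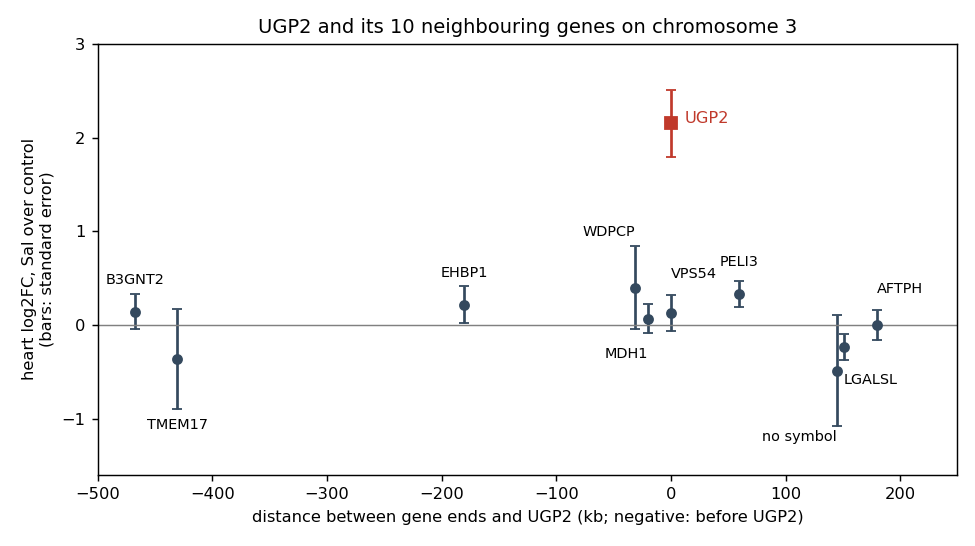
Heart log2FC of Sal-exposed over control birds (y axis, bars are SE) for UGP2 and the 10 genes next to it in order in the count table. The x axis is the distance between gene ends and UGP2 in kb. UGP2 is at 2.15 and its neighbours are at -0.49 to 0.40.

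The genes whose level followed UGP2 most closely over the 12 hearts were PDE4B, a phosphodiesterase that breaks down cAMP (Pearson r = 0.94), TIA1, an RNA-binding protein (0.94), AKAP10, an anchor of protein kinase A (0.93), ZFPM1, a cofactor of GATA factors (0.93), and APOD, a lipocalin that carries lipids (0.93). Over the 12 livers, genes that followed it closely were LRRC57 (r = 0.81), PIGY (0.81), WNT1 (0.81) and PINX1 (0.80). These values describe log2 CPM of 12 libraries of 1 tissue that share the Sal contrast and the scaling, and after subtraction of group means the 5 heart genes were at 0.70 to 0.79. All heart values of r include Sal-exposed heart 1, whose UGP2 stood far above the others, and r without it was not computed. Among the other enzymes, PGM1 stood closest to UGP2 in the hearts (r = 0.73) and PGM2 in the livers (r = 0.70). After subtraction of group means PGM1 was at 0.33 in the hearts, no higher than GBE1 (0.33), and PGM2 at 0.78 in the livers.

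The other enzymes of the set differed much less between Sal-exposed and control hearts. Of the 7 members with enough counts for the fit, only UGP2 passed both cut-offs (p-adj of at most 0.05 and absolute log2FC of at least 1), beside 0.111% of the 13526 genes tested, and nothing is read from this count because UGP2 was chosen on it. Without UGP2, the median log2FC of the other 6 was -0.04 (range -0.67 to 0.31), beside -0.02 over all genes. GYS2 was not fitted, with 12 counts over the 6 Sal-exposed hearts and 6 counts over the 6 control hearts.

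GBE1 (ENSGALG00010007931, chromosome 1, 95263064 to 95444996), the branching enzyme, was lower in every Sal-exposed heart than in every control heart. Its level in Sal-exposed hearts 1 to 6 was 13.04, 8.56, 12.9, 10.9, 16.1 and 14.6 CPM. In control hearts 1 to 6 it was 16.5, 22.9, 19.6, 24.8, 20.2 and 18.2 CPM. The groups did not overlap, although Sal-exposed heart 5 (16.1 CPM) lay close to control heart 1 (16.5 CPM). The log2FC was -0.67 (SE 0.15), and -1.15 (SE 0.29) under scaling by total counts. UGP2 and GBE1 were the 2 of 7 members whose groups did not overlap, beside 2.59% of all genes, again without a reading since the heart contrast served to propose the set.

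PGM1 (ENSGALG00010024350, chromosome 8, 27548353 to 27570732), the main phosphoglucomutase of vertebrate tissues, was at 92.4 to 135 CPM in Sal-exposed hearts (median 120) and 86.8 to 107 CPM in control hearts (median 92.4). These ranges overlapped through Sal-exposed heart 4 (92.4 CPM) alone, with a log2FC of 0.31 (SE 0.11) that turned to -0.18 (SE 0.28) under scaling by total counts. PGM2 (ENSGALG00010015310, chromosome 4, 69293827 to 69343654), a mutase that also acts on pentose phosphates, was low in both groups at 5.74 to 9.88 and 8.22 to 10.3 CPM (log2FC -0.15, SE 0.14).

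UGDH (ENSGALG00010016382, chromosome 4, 68772857 to 68798518) was at 22.9 to 40.2 CPM in Sal-exposed and 26.1 to 37.2 CPM in control hearts, a log2FC of 0.09 (SE 0.14). Its direction turned under scaling by total counts (-0.46, SE 0.26). RNA of UGP2 was thus higher in Sal-exposed hearts, while the ranges of UGDH RNA overlapped. Protein, enzyme activity and UDP-glucose were not measured here. UGDH and PGM2 lie 495.3 kb apart on the same chromosome.

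The phosphorylases of the hearts also overlapped between the groups. PYGB (ENSGALG00010018376, chromosome 3, 4373861 to 4388553) was at 509 to 1100 CPM in Sal-exposed hearts (median 843) and 647 to 1030 CPM in control hearts (median 782), a log2FC of 0.07 (SE 0.19) whose sign was negative without Sal-exposed heart 3 (-0.01) and under scaling by total counts (-0.39). PYGL (ENSGALG00010019481, chromosome 5, 57728002 to 57736987) was at 17.6 to 22.7 CPM against 18.8 to 25.8 CPM, a log2FC of -0.15 (SE 0.11).

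**Figure D3:**
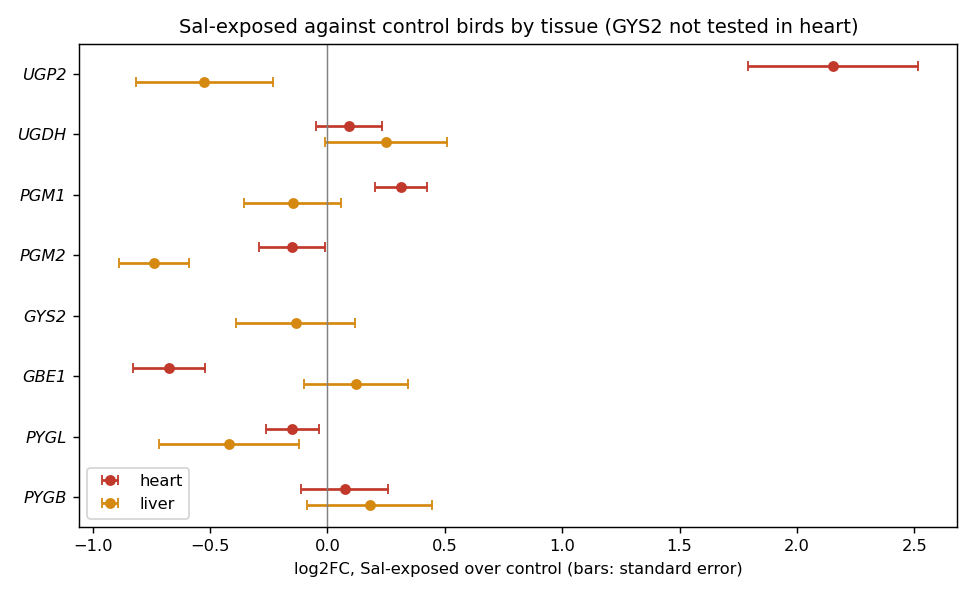
log2FC of Sal-exposed over control birds (x axis, bars are SE) for each enzyme gene in heart (red) and liver (orange), 6 libraries per group. UGP2 is at 2.15 in heart and -0.52 in liver, PGM2 is at -0.15 in heart and -0.74 in liver, and GYS2 has a liver value only.

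Of 45 further genes of glycogen and UDP-sugar metabolism (glycogen priming and breakdown, phosphorylase kinase, phosphatase targeting and laforin, synthase kinases, hexose phosphates, and UDP-sugar users and makers), 40 had a row and 39 were fitted in the heart. Their median heart log2FC was -0.045, and 1 of them (2.56%), UGT1A1, was past both cut-offs, beside 0.111% of all genes, a count given as a description like the rest of this contrast. UGT1A1, a UDP-glucuronosyltransferase that conjugates bilirubin and drugs, was at 0.365 to 1.13 CPM in Sal-exposed hearts and 0.068 to 0.178 CPM in control hearts (log2FC 2.47, SE 0.40). It was past the cut-offs in 5 of the 12 fits that left out 1 library (log2FC 2.25 to 2.67), but not without Sal-exposed heart 1 or any 1 control heart, and in 8 of 10 other settings, but not with the replicate block or without Sal-exposed hearts 1 and 4. These levels rest on 106 counts over 6 Sal-exposed and 30 counts over 6 control libraries, against 104279 counts in the 6 control livers. At the ALB share, liver RNA carries 12.1 to 51.5% of the UGT1A1 measured in Sal-exposed hearts and 16.4 to 47.2% of that in control hearts. The part of liver RNA in the UGT1A1 difference was not tested. PHKA2, the liver-type regulatory subunit of phosphorylase kinase, had the next largest value, at 20.6 to 69.3 CPM in Sal-exposed and 19.1 to 25.5 CPM in control hearts (log2FC 1.05, SE 0.25), and the groups overlapped.

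In the liver, 1 enzyme of the set changed. PGM2 fell in the Sal-exposed group with a log2FC of -0.74 (SE 0.15, edgeR p-adj = 0.00808), a 0.599-fold level. In Sal-exposed livers 1 to 6 it was at 74.4, 80.0, 76.4, 91.5, 64.5 and 69.5 CPM. In control livers 1 to 6 it was at 137, 124, 114, 144, 105 and 106 CPM. Every Sal-exposed liver was below every control liver. It passed p-adj of at most 0.05 without each of the 12 libraries in turn (log2FC -0.80 to -0.68). Under scaling by total counts, its log2FC was -0.16 (SE 0.19, edgeR p-adj = 0.558) while the median of all genes was 0.58, so that the log2FC of PGM2 less that of the median gene was -0.74 and its level per total count did not pass the test. Its gene overlaps TBC1D1 by 15.6 kb, whose log2FC was 0.48 (SE 0.19), and without strand reads of the overlap cannot be assigned.

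PGM2 was thus 1 of 8 members (12.5%) past p-adj alone in either direction, beside 15.4% of the 13587 genes tested, of which 7.84% were lower as PGM2 was. By both cut-offs 0 of 8 members passed in edgeR, beside 7.01% of all genes, with 1 member (beside 31.5% of all genes) at an unadjusted p under 0.05 and 0 passing both cut-offs in DESeq2. The groups of 1 of 8 members did not overlap, beside 5.7% of all genes. The median log2FC of the 8 members was -0.14, beside -0.01 over all genes.

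UGP2 in the liver was not shown to change. Its level was 493, 509, 439, 1095, 611 and 532 CPM in Sal-exposed livers 1 to 6. In control livers 1 to 6 it was 1227, 701, 645, 1300, 520 and 673 CPM. The ranges overlapped through Sal-exposed liver 4, which stood far above the other 5 of its group and had the highest mitochondrial share of the livers (30.4%), and through control liver 5. The log2FC was -0.52 (SE 0.29, edgeR p-adj = 0.238), with a 95% interval of -1.18 to 0.13, and it was 0.044 (SE 0.27) under scaling by total counts. UGP2 had a log2FC of 2.15 in heart and -0.52 in liver, and the difference between the tissues was not tested.

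For the remaining enzymes of the liver no change was shown, and the intervals allow changes in either direction. UGDH was at 60.7 to 111 CPM in Sal-exposed and 36.9 to 118 CPM in control livers, a log2FC of 0.25 (SE 0.26) with an edgeR p-adj of 0.544. PGM1 was at 182 to 429 CPM against 287 to 390 CPM (-0.15, SE 0.21, p-adj = 0.669). These ranges of the groups overlapped in both genes. UGDH shares 25.4 kb, nearly its whole span, with SMIM14 and 5.68 kb with LIAS. The limit given for PGM2 thus covers more of UGDH, in the hearts and in the comparison of the tissues too.

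GYS2 (ENSGALG00010013201, chromosome 1, 67093458 to 67139640), the liver glycogen synthase, was at 56.4 to 118 CPM in Sal-exposed livers (median 87.9) and 46.7 to 117 CPM in control livers (median 88.0). The log2FC was -0.14 (SE 0.25, edgeR p-adj = 0.753). GBE1 was at 165 to 247 CPM against 102 to 243 CPM (log2FC 0.12, SE 0.22, p-adj = 0.750), so that the gap seen in the hearts had no counterpart in separate ranges here. Under scaling by total counts, GBE1 (0.78, edgeR p-adj = 0.00886) and UGDH (0.86, edgeR p-adj = 0.0287) passed p-adj of at most 0.05, at 0.19 and 0.28 above the median gene.

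PYGL, the liver phosphorylase, was at 235 to 597 CPM in Sal-exposed livers (median 266) and 248 to 691 CPM in control livers (median 374). Its log2FC was -0.42 (SE 0.30, edgeR p-adj = 0.358), and 5 of the 6 Sal-exposed livers lay between 235 and 315 CPM, with liver 2 apart at 597 CPM. PYGB was low in both groups, at 13.2 to 31.5 and 9.93 to 27.4 CPM (0.18, SE 0.27, p-adj = 0.686).

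Among the 37 further genes fitted in the liver, 3 rose and 0 fell by p-adj of at most 0.05 (8.11%), beside 15.4% of all genes, with a median log2FC of 0.09. UGT8, which transfers galactose from UDP-galactose to ceramide, rose from 3.21 to 8.496 CPM in control livers to 7.67 to 30.7 CPM in Sal-exposed livers, a log2FC of 1.42 (SE 0.34) with an edgeR p-adj of 0.0154, and was the 1 gene past both cut-offs. The groups overlapped slightly, and UGT8 passed p-adj of at most 0.05 without each library in turn.

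PHKB, the regulatory beta subunit of phosphorylase kinase, rose from 11.04 to 18.7 CPM to 18.6 to 32.8 CPM (log2FC 0.68, SE 0.19, edgeR p-adj = 0.0258). UGGT1, which glucosylates misfolded glycoproteins with UDP-glucose, rose from 23.4 to 49.1 CPM to 45.6 to 67.5 CPM (0.62, SE 0.17, p-adj = 0.0276). Both calls were lost without some libraries, as PHKB passed in 9 and UGGT1 in 7 of the 12 fits that left out 1 library. PHKB was lost without Sal-exposed liver 5 (p-adj = 0.0586) or 6 (0.0600) or control liver 5 (0.0569). UGGT1 was lost without Sal-exposed liver 5 (p-adj = 0.0611) or 6 (0.0642) or control liver 1 (0.0508), 4 (0.0652) or 5 (0.0542).

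**Figure D4:**
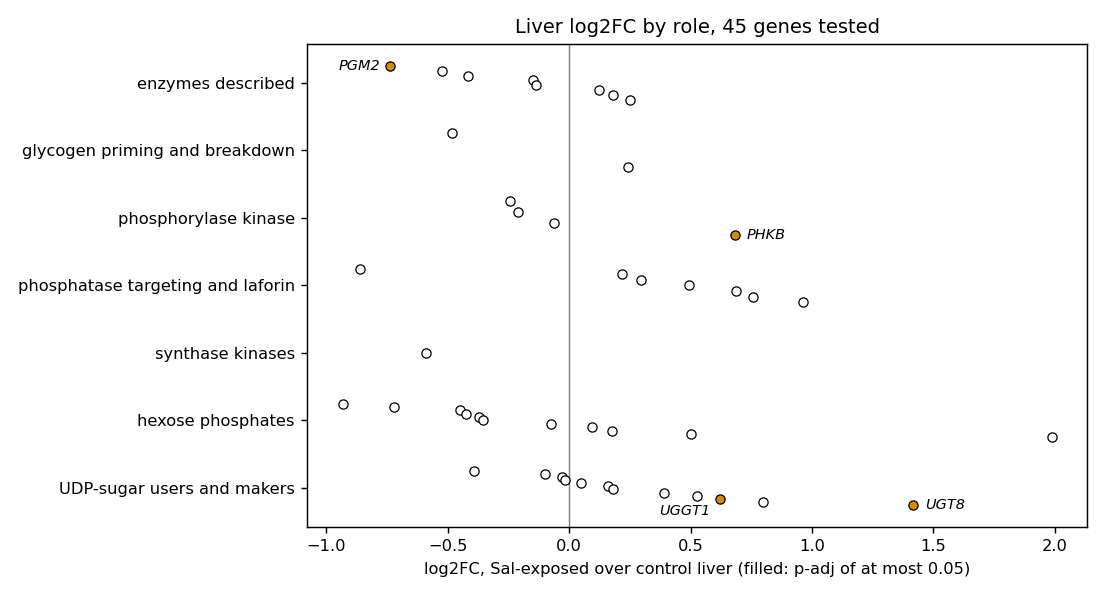
Liver log2FC of Sal-exposed over control birds (x axis) for the 45 genes fitted, 8 enzymes of the set and 37 further genes, grouped by role (y axis, points spread within a row for legibility). Filled points pass p-adj of at most 0.05, which are PGM2 below 0 and PHKB, UGGT1 and UGT8 above 0.

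Control hearts and control livers differed in every member of the set. All 8 passed both cut-offs, 7 higher in liver and PYGB higher in heart, beside 50.8% of the 14121 genes tested (23.9% higher in liver and 26.9% higher in heart). The groups did not overlap for 7 of the 8, beside 53.1% of all genes, with UGDH the exception. The tissue differences below keep their direction under scaling by total counts, where UGDH (-0.64) was under the log2FC cut-off, as it was without control liver 6 (-0.97).

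UGP2, UGDH and the branching enzyme GBE1 were higher in control liver. The log2FC of heart over liver was -2.94 for UGP2 (SE 0.27, edgeR p-adj = 3.15e-07), and each control liver (520 CPM or more) exceeded each control heart (149 CPM or less). The same control hearts served to propose UGP2, so this p-adj is not independent of that choice. UGDH differed least, with -1.17 (SE 0.24, p-adj = 0.000559) and a control liver at 36.9 CPM within the range of control hearts. GBE1 had -3.06 (SE 0.21, p-adj = 1.69e-08).

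GYS2 was almost confined to liver in these libraries. Its 6 counts over the 6 control hearts, beside 15531 counts over the 6 control livers, gave a ratio of liver to heart of 3912 (95% interval 1797 to 10660, counting error only) in CPM. In control hearts it was at 0 to 0.0446 CPM.

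The mutases were higher in liver too, PGM2 with -3.76 (SE 0.13, edgeR p-adj = 2.21e-11) and PGM1 with -1.86 (SE 0.13, p-adj = 1.29e-08). PGM2 in control livers (105 to 144 CPM) and control hearts (8.22 to 10.3 CPM) thus differed more than PGM1 in control livers (287 to 390 CPM) and control hearts (86.8 to 107 CPM), a difference of the 2 log2FC that was not tested.

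The phosphorylases were divided between the tissues. PYGL was at 248 to 691 CPM in control livers and 18.8 to 25.8 CPM in control hearts, a log2FC of -4.25 (SE 0.27) with an edgeR p-adj of 8.56e-09. PYGB was at 9.93 to 27.4 CPM in control livers and 647 to 1030 CPM in control hearts (log2FC 5.41, SE 0.30, p-adj = 2.21e-09). The log2 ratio of PYGB to PYGL CPM lay between 4.62 and 5.81 in the 12 hearts and between -5.11 and -3.04 in the 12 livers, Sal-exposed birds included, so every heart stood on one side and every liver on the other. Gene length does not enter the difference between tissues of this ratio, though the ratio itself is not a ratio of transcripts. PYGM, the muscle phosphorylase, had no row under that symbol and is not analysed here, and reads of such similar genes may be shared between them in the counting.

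**Figure D5:**
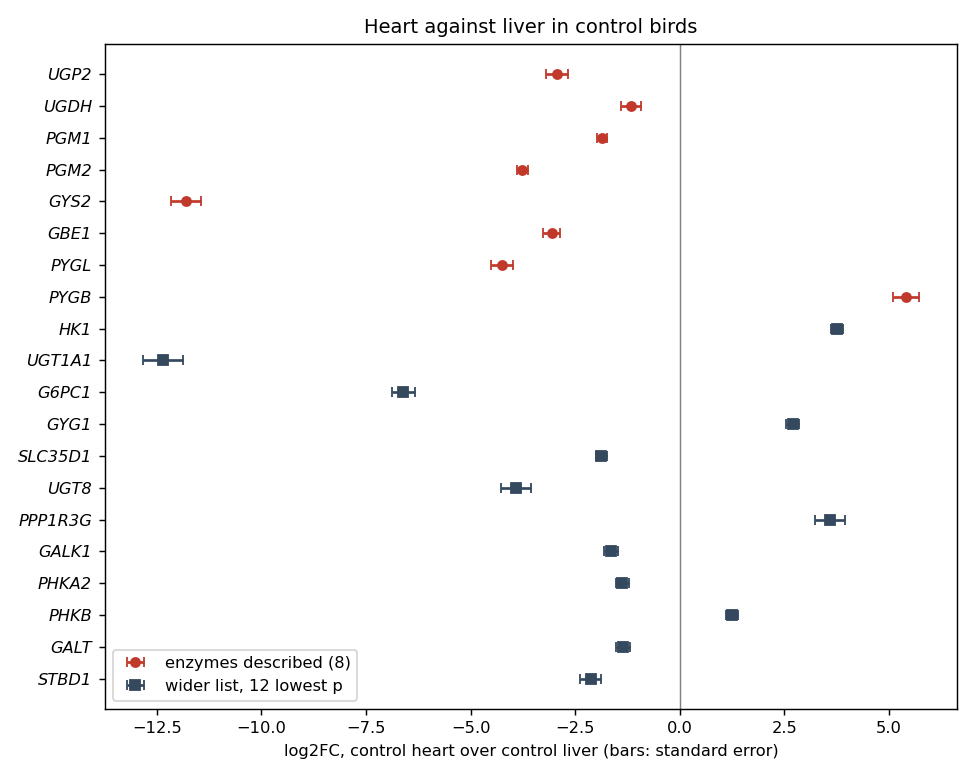
log2FC of control heart over control liver (x axis, bars are SE, 6 libraries per tissue) for the 8 enzymes of the set (red) and the 12 further genes with the lowest p (blue). PYGB is at 5.41 and 7 enzymes are below 0. The fitted value of GYS2, near the left edge, depends on a small count added in the fit because its heart counts are close to 0. That of UGT1A1, also near the left edge, rests on 30 counts in control hearts.

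Of the 40 further genes, all fitted here, 13 were higher in control heart and 19 higher in control liver by p-adj of at most 0.05 (80%, beside 68.8% of all genes). Among the 12 with the lowest p, 4 were higher in heart, among them genes that trap glucose or prime glycogen. HK1, a hexokinase, was at 216 ± 18.9 CPM in control hearts (SD, n = 6) and 15.8 ± 2.39 CPM in control livers (a heart over liver log2FC of 3.75, edgeR p-adj = 3.96e-11). GYG1, the glycogenin that primes glycogen, was at 60.0 ± 4.598 against 9.08 ± 2.14 CPM (2.70, p-adj = 3.06e-09). PPP1R3G, a subunit that brings protein phosphatase to glycogen, had 3.59 (p-adj = 8.25e-07) and PHKB 1.25 (p-adj = 2.83e-06).

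The other 8 of the 12 were higher in liver, among them genes that release glucose or handle UDP-sugars. Neither role went 1 way throughout the further list. By p-adj of at most 0.05, 9 of the 13 UDP-sugar users and makers were higher in liver and 4 higher in heart. Of all genes, 68.8% passed this cut-off in either direction. Of the 11 hexose phosphate genes, 5 were higher in liver and 2 higher in heart (63.6% in either direction), near the share of all genes. G6PC1, the phosphatase that frees glucose for export, was at 888 ± 309 CPM in control livers and 9.24 ± 1.21 CPM in control hearts (a log2FC of -6.61, edgeR p-adj = 1.16e-10). SLC35D1, which carries UDP-glucuronate into the endoplasmic reticulum, had -1.88 (p-adj = 1.73e-08), UGT8 -3.91 (p-adj = 2.95e-07), GALK1 and GALT of galactose use -1.65 (p-adj = 9.18e-07) and -1.36 (p-adj = 3.71e-06), and PHKA2 -1.38 (p-adj = 2.13e-06). STBD1, which binds glycogen, was at 92.8 ± 40.9 CPM in control livers and 21.7 ± 4.21 CPM in control hearts (-2.12, p-adj = 4.02e-06). UGT1A1 had 30 counts in control hearts and 104279 in control livers, a ratio of 5254 (95% interval 3680 to 7787, counting error only).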

How the data were processed

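RNA-seq of 24 chicken heart and liver libraries was used. According to their methods, the authors checked the reads with FastQC, trimmed them with fastp, aligned them with STAR to GRCg7b and quantified genes with RSEM, whose versions the sources used here do not give. The deposited table holds whole-number counts of 15051 Ensembl genes without normalization, of which 11779 have a symbol. Of its 36 columns, 12 match no sample and were not used. The authors' comparison columns (log2 fold changes, p-values, scores) hold their DESeq2 results and were not used.

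Counts were fitted in R 4.3.3 with edgeR 4.0.16 (quasi-likelihood, TMM, filterByExpr with a minimum count of 10 and total of 15, Benjamini-Hochberg over all genes), after tests on simulated data. SE is that of the log2FC. A gene was called at p-adj of at most 0.05 and absolute log2FC of at least 1. P-values measure the spread between 6 birds per group, taken as independent. The methods describe 6 birds sampled per group and the dissection of heart and liver. So far as stated, control hearts and control livers came from the same birds, and the comparison of the tissues ignores this. According to the methods, birds were housed in groups in pens and Sal was given in the feed. How the sampled birds were spread over pens is not stated, so a difference between pens cannot be told apart from one between groups. Printed CPM were scaled over 24 libraries, which moved a library by at most 0.16 (log2) against the scaling of the tests. The 276 pairs of libraries all differed beyond sampling noise (lowest chi-square per degree of freedom 13.14). Strandedness is likewise not given, so overlapping genes are uncertain.

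All members in the table are named, as are further genes of the list past p-adj of at most 0.05 (at most 12 per comparison, by p) and the 5 genes with the highest r to UGP2 in log2 CPM (prior count 2). PHKA2 in heart, the neighbours of UGP2 and the overlapping genes were named after their values were seen. Of the further list and of the genes closest to UGP2 in liver, 1 gene each is not reported here. Members and lists were chosen with earlier results of these data known. Alternatives were DESeq2 1.42.0, upper-quartile scaling, no filter, replicate block, all 24 libraries in one fit, mitochondrial genes left out, surrogate variables (sva 3.50.0, 3 per tissue), p-adj alone and each library left out. Scaling by total counts and the fit without Sal-exposed hearts 1 and 4 were chosen after the data were seen.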

Additional observations from a re-analysis of the deposited data

Results flagged for a closer look

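In 3 of the 30 groups of 6 libraries checked, 1 library was flagged because its gap to the nearest other, divided by the range of its group, was above the 95% critical value of Dixon. For normally distributed values, chance alone gives this in about 1 of 20 groups. The ratio was taken on CPM and not on log2 CPM, all 3 flags were at the high end, and whether they hold on log2 CPM was not tested. UGP2 in Sal-exposed heart 1 was at 1232 CPM, with the next heart at 445.9 CPM (gap of 0.775 of the range). UGP2 in Sal-exposed liver 4 was at 1095 CPM, with the next liver at 611.2 CPM (0.738). PYGL in Sal-exposed liver 2 was at 597.1 CPM, with the next liver at 315.4 CPM (0.777).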

How the results depend on the processing

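Heart log2FC of the set kept their direction except where named in the text, but the number of DE genes in heart rested on the setting. It was 15, against 25 by p-adj alone, 126 in DESeq2, 0 with the replicate block, 35 with all 24 libraries in one fit, 109 and 200 with surrogate variables in edgeR and DESeq2, 156 under total-count scaling (8 of them higher), and 0 to 72 without 1 library (0 without any control heart, 3, 72 and 29 without Sal-exposed heart 1, 3 or 4). UGP2 was called in all of these but the replicate block and the 6 fits without 1 control heart (members called 0 to 1). Nothing is read from these calls, because UGP2 was chosen on this contrast. The log2FC of UGP2 was 1.54 to 2.17 over the settings and 1.64 to 2.30 without 1 library. In liver 952 genes were called, against 2093 by p-adj alone, 563 with the replicate block, 1464 with all 24 libraries, 534 with surrogate variables in edgeR, 2595 under total-count scaling (2493 higher), and 504 to 1296 without 1 library (607 and 504 without Sal-exposed liver 5 or 6). Of them, 454 were higher, against 558 of 962 under upper-quartile scaling. Members called in liver were 0, against 1 by p-adj alone. Total-count scaling turned the liver log2FC of UGP2 (0.044), PGM1 (0.42), GYS2 (0.54) and PYGL (0.12), and surrogate variables that of PYGB (-0.080 in edgeR, -0.075 in DESeq2). PHKB and UGGT1 in liver lost their calls with the replicate block (edgeR p-adj = 0.0561 and 0.0595) and with surrogate variables in edgeR (0.0610 and 0.118), and UGGT1 also in DESeq2 with surrogate variables (0.0848). The cause was not tested. Control heart against control liver gave 7113 to 7490 called genes and 7 or 8 called members without 1 library. Deviations of same-numbered libraries had r of -0.19 to 0.09 in heart, -0.08 to 0.12 in liver and -0.03 to 0.21 between control tissues. The own number was the best match for 0, 1 and 3 of 6 libraries. The replicate block was not taken as a pairing, as these values do not settle which heart and which liver shared a bird. Depth limits GYS2 and UGT1A1 in heart, where counts are few.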
